A study of Mus musculus with 3 samples.

Results

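The data described here are the array values of 10 genes for secreted angiogenic factors and their receptors in macrophages of mice. They are the vascular endothelial growth factor (VEGF) family genes *Vegfa*, *Vegfb*, *Vegfc* and *Pgf*, the platelet-derived growth factor (PDGF) genes *Pdgfa* and *Pdgfb*, the thrombospondin gene *Thbs1*, and the receptor genes *Flt1*, *Nrp1* and *Nrp2*. Members were all probe sets annotated with 1 of these symbols and no other, which gave 25 of 45037 probe sets and 10 of 18193 genes. Macrophages grown in culture from the bone marrow of healthy mice (BMDM) were compared with tumor-associated macrophages (TAMs) of mice bearing 4T1 cells. 4T1 is a line of mammary carcinoma from the BALB/c strain, and tumors of it in the mammary gland seed the lung. pTAMs came from the primary tumor and mTAMs from the metastatic lung of matched animals, 5 weeks after inoculation. The series' design text gives a gate on CD11b and F4/80 for all 3 groups, and per the study's methods tissue for TAMs was digested with enzymes before the sort. Each group was measured on 1 array. Neither the pooling of animals for an array nor a selection against Ly6C is stated in the sources used here.

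VEGF-A, the product of *Vegfa*, drives the growth of new vessels and their leakiness by binding receptors on endothelial cells, and placental growth factor (*Pgf*) and VEGF-B bind the receptor FLT1. Neuropilins are co-receptors that bind VEGF forms and class 3 semaphorins, and myeloid cells carry them as well as the endothelium. In tumors, macrophages gather in regions poor in oxygen, where hypoxia-inducible factors activate *Vegfa*, and thrombospondin-1 is a matrix protein best known as an inhibitor of vessel growth.

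Values are log2 signals made by robust multi-array average (RMA). A floor of 5.3 was taken from sensory receptor genes, assumed to be mostly silent in macrophages, and values that did not exceed it were treated as background. Medians of the arrays were 5.36 in BMDM, 5.43 in pTAMs and 5.43 in mTAMs, and between 11423 and 11611 genes lay above the floor. A gene was read from its brightest probe set and compared where either value exceeded the floor. A difference of at least 1 on the log2 scale, a 2-fold change, was counted. Since there were no replicates, no difference has an error across animals and none was tested. The spread at hand is that among probe sets for the same gene. Its SD was 0.43 for pTAMs minus BMDM, 0.52 for mTAMs minus BMDM and 0.28 for mTAMs minus pTAMs, with no part from animals, sorting or arrays. Of the 25 probe sets, 17 lay above the floor on all 3 arrays, 22 on at least 1 and 3 on none.

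The angiogenic genes did not move as one group. Against BMDM, ligand genes *Vegfa* and *Pgf* and the matrix gene *Thbs1* were higher in pTAMs, whereas the neuropilin genes and *Pdgfb* were lower. Of 9 members compared between pTAMs and BMDM, 3 were at least 2-fold higher (*Pgf*, *Thbs1*, *Vegfa*), 3 were at least 2-fold lower (*Nrp1*, *Nrp2*, *Pdgfb*) and 3 were within 2-fold (*Flt1*, *Pdgfa*, *Vegfb*). Over all 11859 genes compared, 8.78% were higher by this measure and 7.5% were lower. The median log2 difference was 0.48 for the members and -0.05 for all genes. Between mTAMs and BMDM, 3 of 10 members were higher (*Thbs1*, *Vegfa*, *Vegfc*) against 11.5% of all 11945 genes, and 4 were lower (*Nrp1*, *Nrp2*, *Pdgfb*, *Vegfb*) against 14.4%. The medians were 0.01 for the members and -0.11 for all genes. Between mTAMs and pTAMs, no member was at least 2-fold higher, against 5.36% of all 11801 genes, and 3 were lower (*Pgf*, *Thbs1*, *Vegfa*) against 2.58%. The medians were -0.52 and -0.06. The first and second comparisons share the BMDM array, so their values are set side by side and do not support each other.

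**Figure D1:**
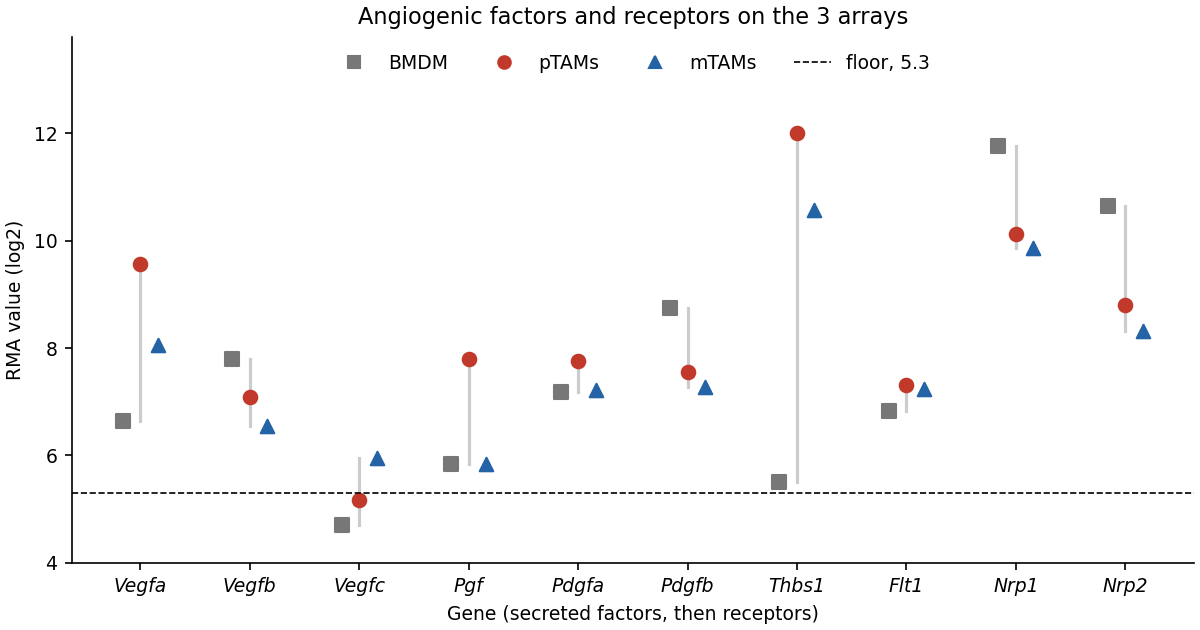
RMA values (log2) of the 10 genes on the arrays of BMDM (squares), pTAMs (circles) and mTAMs (triangles), each gene read from its brightest probe set, the dashed line being the floor of 5.3. *Thbs1* spans the widest range, from 5.51 in BMDM to 12.01 in pTAMs, *Nrp1* and *Nrp2* are highest in BMDM, and *Vegfc* is above the floor in mTAMs only.

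*Vegfa* was highest in pTAMs, intermediate in mTAMs and lowest in BMDM. The probe set that stands for it gave 6.64 in BMDM, 9.56 in pTAMs and 8.05 in mTAMs. Relative to BMDM it was 7.57-fold higher in pTAMs and 2.66-fold higher in mTAMs, and mTAMs were 2.85-fold below pTAMs. The name of this probe set marks it as shared between transcripts. A second probe set gave 4.67 in BMDM, which is below the floor, 10.01 in pTAMs and 7.98 in mTAMs. Its order of arrays was the same, with larger differences of at least 26.2-fold for pTAMs against BMDM and at least 6.41-fold for mTAMs against BMDM, and it was 4.08-fold lower in mTAMs than in pTAMs. In bulk samples such as these, fewer cells of a type and less RNA per cell cannot be told apart.

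*Pgf*, a ligand of FLT1, was higher on the pTAM array than on both others. Its single probe set gave 5.85 in BMDM, 7.79 in pTAMs and 5.85 in mTAMs. Both low values were equal and lay just above the floor, and pTAMs were 3.84-fold higher than either of the other groups. If these equal values are background of the probe set, that fold is a lower bound. With a log2 difference of -1.94, *Pgf* had the most negative difference of all members in mTAMs against pTAMs.

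Since *Vegfa* and *Pgf* were both highest in pTAMs and the neuropilin genes both highest in BMDM, the 250 bases before the annotated start of these genes are shown (RefSeq, build GRCm38.p6). Windows were found for 8 of the 10 members, 11 windows in all, and none was given for *Thbs1* and *Pdgfb*. They were searched on both strands for the core to which hypoxia-inducible factors bind (ACGTG or GCGTG), for the GC box (GGGCGG) and for the AP-1 motif (TGANTCA). Capitals mark the hypoxia-inducible factor core, read as CACGT or CACGC where it lies on the opposite strand.

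*Vegfa*, chr17:46032378-46032627, minus strand: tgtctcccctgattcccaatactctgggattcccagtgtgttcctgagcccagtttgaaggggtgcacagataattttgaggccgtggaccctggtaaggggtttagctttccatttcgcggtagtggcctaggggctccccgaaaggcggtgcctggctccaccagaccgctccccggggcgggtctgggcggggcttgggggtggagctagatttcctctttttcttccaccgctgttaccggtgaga

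*Pgf*, chr12:85177314-85177563, minus strand: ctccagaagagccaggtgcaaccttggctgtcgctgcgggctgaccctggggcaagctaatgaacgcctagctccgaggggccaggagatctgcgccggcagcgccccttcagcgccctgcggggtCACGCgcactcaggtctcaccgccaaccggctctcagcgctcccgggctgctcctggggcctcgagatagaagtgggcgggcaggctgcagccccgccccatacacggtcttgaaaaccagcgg

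*Nrp1*, chr8:128358823-128359072, plus strand: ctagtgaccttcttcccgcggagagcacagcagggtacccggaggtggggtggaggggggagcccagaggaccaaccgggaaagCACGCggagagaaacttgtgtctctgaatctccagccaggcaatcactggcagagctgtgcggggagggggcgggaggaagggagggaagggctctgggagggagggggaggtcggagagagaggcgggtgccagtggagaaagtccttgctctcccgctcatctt

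*Nrp2*, chr1:62703067-62703316, plus strand: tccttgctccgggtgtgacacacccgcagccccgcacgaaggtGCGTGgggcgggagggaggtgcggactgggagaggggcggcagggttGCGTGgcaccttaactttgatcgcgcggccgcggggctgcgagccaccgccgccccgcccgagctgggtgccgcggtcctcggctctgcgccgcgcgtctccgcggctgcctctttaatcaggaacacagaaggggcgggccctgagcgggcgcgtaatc

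The *Vegfa* window held no match to the hypoxia-inducible factor core, and its GC boxes began 72 and 62 bases before the start. Bases farther upstream than 250 were not searched for any gene, so matches there would have been missed. A second annotated *Vegfa* start lies farther downstream, within the gene. Its window had 2 matches to the core, 218 and 211 bases before that start, in a stretch that reads as VEGF-A protein-coding sequence. The window of a second *Pgf* start held neither the core nor a GC box. In the *Pgf* window shown the core lay 124 bases before the start, in *Nrp1* 166 bases before it and in *Nrp2* 207 and 160 bases before it. Over the members, 7 of 11 windows held the core, the second *Vegfa* window among them, against 38.6% of 32851 promoter windows of the same length. A GC box was held by 10 of 11, against 32.7%, and the AP-1 motif by none, against 6.75%. The member windows were rich in G and C, with 59.2% to 76.4%, where the median of all windows was 52.4%. ACGTG is also part of the E-box CACGTG, so a match does not name a factor. Any part of these motifs in the differences was not tested.

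*Vegfb*, whose product acts on metabolism and survival more than on vessel growth, was highest in BMDM. Its single probe set gave 7.80 in BMDM, 7.09 in pTAMs and 6.55 in mTAMs. The difference from BMDM was -0.71 in pTAMs, within 2-fold, and -1.25 in mTAMs, a 2.38-fold lower level. *Vegfc*, the growth factor of lymphatic vessels, was near background throughout. Its brightest probe set gave 4.71 in BMDM, 5.17 in pTAMs and 5.95 in mTAMs, so that the mTAM value alone lay above the floor. mTAMs were at least 1.57-fold higher than BMDM and at least 1.57-fold higher than pTAMs, both folds being taken against the floor. The measured log2 difference of 1.24 from BMDM placed *Vegfc* among the genes counted as higher, and with the BMDM value raised to the floor it was 0.65 and was not counted. Its other probe sets, 2 in number, lay below the floor on all arrays.

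*Thbs1*, which encodes thrombospondin-1, showed the largest difference among the members in both comparisons with BMDM. Its brightest probe set gave 5.51 in BMDM, 12.01 in pTAMs and 10.57 in mTAMs. It was 90.5-fold higher in pTAMs and 33.4-fold higher in mTAMs than in BMDM, and 2.71-fold lower in mTAMs than in pTAMs. The BMDM value lay close to the floor of 5.3, and below the 5.56 that the floor reached when sweet and umami taste receptors were included, so both folds rest on a level near background. The second probe set gave 4.84 in BMDM, which is below the floor, 10.53 in pTAMs and 8.85 in mTAMs, and thus at least 37.5-fold and at least 11.7-fold higher levels than in BMDM. It was 3.2-fold lower in mTAMs than in pTAMs. *Thbs1* ranked 18th highest of 11859 genes in pTAMs against BMDM and 97th highest of 11945 in mTAMs against BMDM. The related genes *Thbs2*, *Thbs3* and *Thbs4* lay below the floor on all arrays.

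Of the PDGF genes, whose products recruit pericytes and fibroblasts, *Pdgfa* was within 2-fold in all comparisons and *Pdgfb* was highest in BMDM. *Pdgfa* gave 7.19 in BMDM, 7.76 in pTAMs and 7.22 in mTAMs, and its second probe set gave 6.91, 7.70 and 7.14 in the same order. Both were highest in pTAMs, by log2 differences from BMDM of 0.57 and 0.79. *Pdgfb* gave 8.74 in BMDM, 7.55 in pTAMs and 7.27 in mTAMs, so it was 2.28-fold lower in pTAMs and 2.77-fold lower in mTAMs than in BMDM. Its second probe set gave 6.74, 5.97 and 5.69. The differences of that probe set from BMDM were -0.77, which does not reach 2-fold, in pTAMs and -1.05 in mTAMs.

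The receptor gene *Flt1* differed little by the probe set that stands for it. FLT1 (VEGFR1) binds VEGF-A, VEGF-B and placental growth factor and is the VEGF receptor of monocytes and macrophages. Its brightest probe set gave 6.83 in BMDM, 7.31 in pTAMs and 7.23 in mTAMs, with differences of 0.48 and 0.40 from BMDM that are close to the spread between probe sets. A second probe set gave 5.13, 5.75 and 6.25, the BMDM value being below the floor, so it was at least 1.37-fold higher in pTAMs and at least 1.93-fold higher in mTAMs. Its measured log2 difference of 1.12 in mTAMs against BMDM reached 2-fold. Between mTAMs and pTAMs it differed by 0.50, where the brightest differed by -0.08. Another gave 4.82, 5.69 and 5.30, above the floor in pTAMs alone, and differed by -0.39 between the TAM arrays. The last (4.67, 4.76 and 4.76) lay below the floor throughout.

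Both neuropilin genes were lower in TAMs of either site than in BMDM. *Nrp1* gave 11.76 in BMDM, 10.13 in pTAMs and 9.87 in mTAMs, 3.1-fold lower in pTAMs and 3.71-fold lower in mTAMs. All 4 of its probe sets were at least 2-fold lower in both comparisons, with log2 differences from -2.20 to -1.53 in pTAMs and from -2.24 to -1.77 in mTAMs. *Nrp2* gave 10.64 in BMDM, 8.81 in pTAMs and 8.32 in mTAMs, 3.56-fold lower in pTAMs and 4.99-fold lower in mTAMs. Of its 4 probe sets, 3 were at least 2-fold lower in both comparisons, and the dimmest, with 6.42 in BMDM, 5.66 in pTAMs and 5.68 in mTAMs, differed by -0.76 and -0.74. Between the TAM arrays, the brightest probe sets differed by -0.26 for *Nrp1* and -0.49 for *Nrp2*, which is within 2-fold. *Nrp2* and *Nrp1* were the 269th and 356th lowest of 11859 genes in pTAMs against BMDM and the 141st and 330th lowest of 11945 in mTAMs against BMDM.

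**Figure D2:**
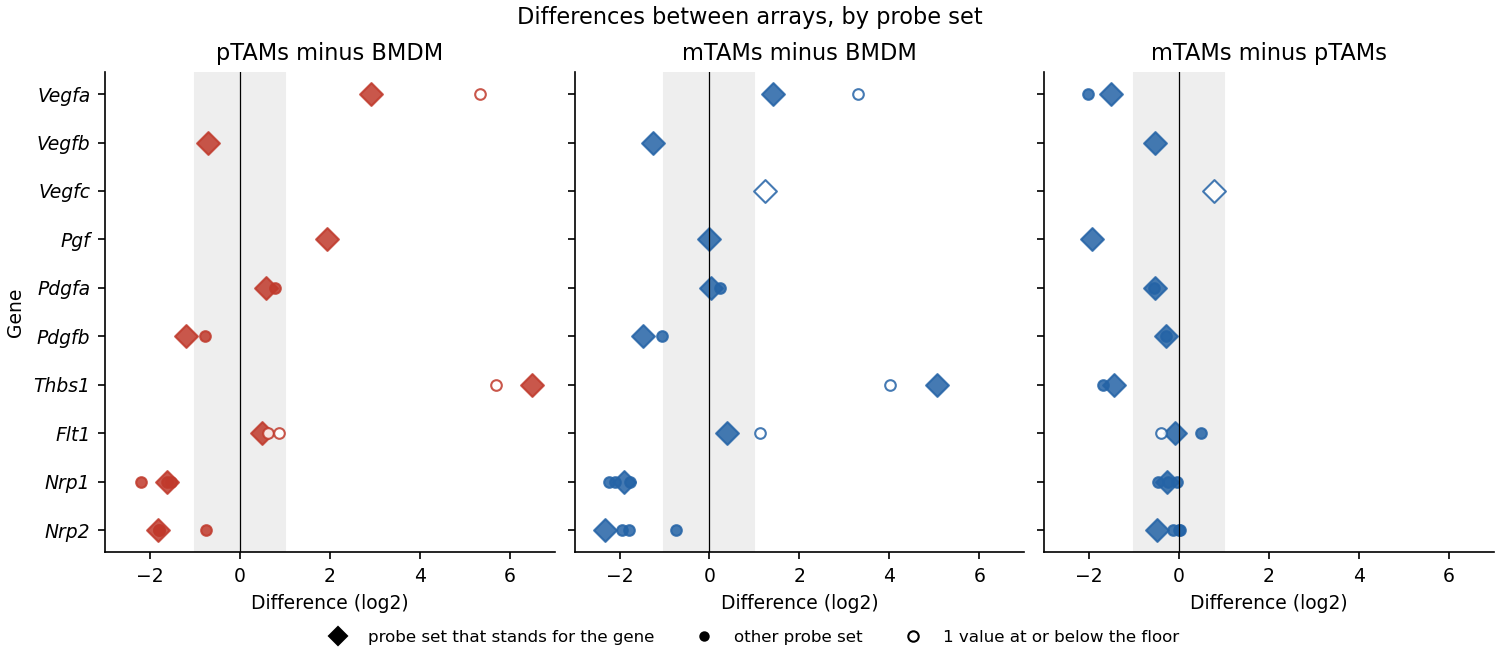
Log2 differences between arrays (horizontal axis, the same scale in all panels) for each probe set of the 10 genes (vertical axis) with at least 1 of the 2 values above the floor. Diamonds are the probe sets that stand for a gene, circles are its other probe sets, open symbols had 1 value at or below the floor, and the grey band spans a 2-fold change in either direction. *Nrp1* has all 4 probe sets left of the band in both comparisons with BMDM, while *Vegfa*, *Pgf* and *Thbs1* lie left of it in mTAMs minus pTAMs.

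The comparison of mTAMs with pTAMs sets the cells sorted at the tumor sites side by side. It thus left the transcripts of 3 secreted factors lower on the mTAM array. The log2 differences were -1.94 for *Pgf*, -1.51 for *Vegfa* and -1.44 for *Thbs1*, and the second probe sets of *Vegfa* and *Thbs1* gave -2.03 and -1.68. Among 11801 genes, *Pgf* was the 25th lowest, *Vegfa* the 74th and *Thbs1* the 89th, so that 0.22%, 0.636% and 0.78% of all genes were as low or lower. The other members lay within 2-fold, from -0.54 for *Vegfb* and *Pdgfa* to 0.78 for *Vegfc*.

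**Figure D3:**
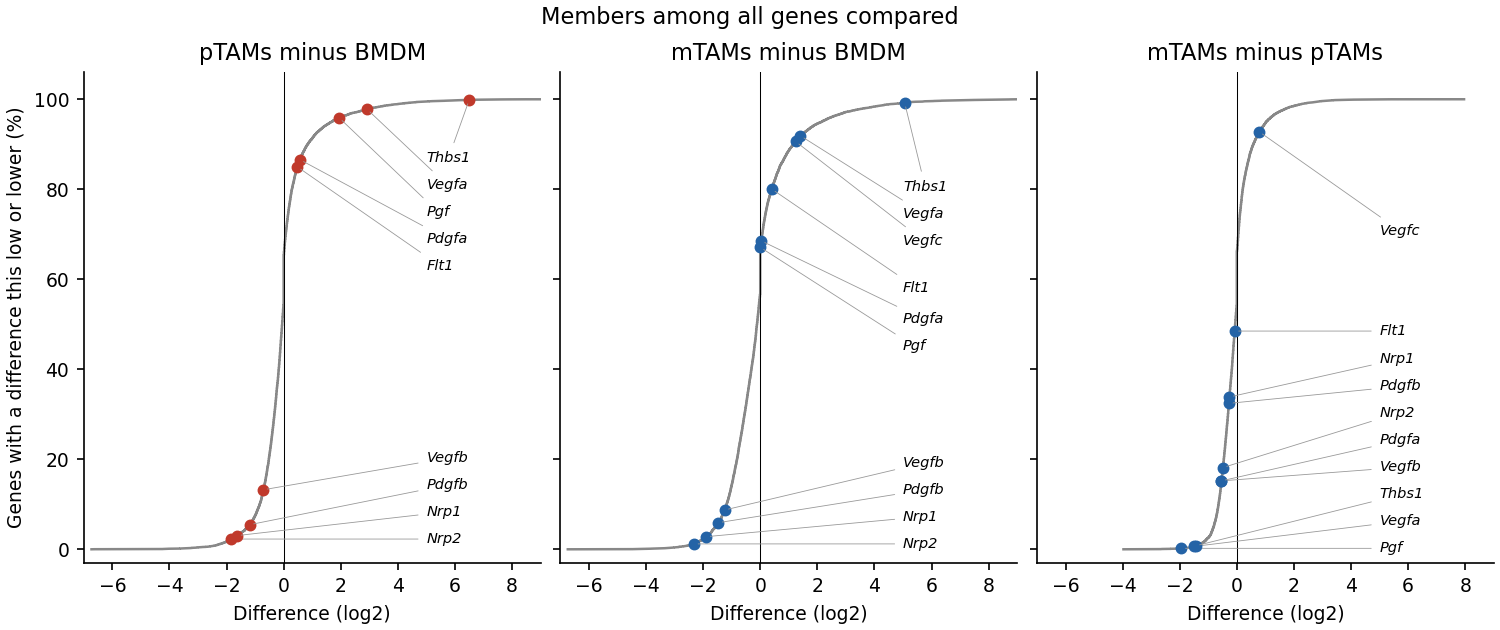
Share of all compared genes (%, vertical axis) with a log2 difference as low as or lower than the value on the horizontal axis, with the members marked on the curve. In mTAMs minus pTAMs, *Pgf*, *Vegfa* and *Thbs1* lie at the lower end, with 0.22%, 0.636% and 0.78% of genes as low or lower, and *Thbs1* lies at the upper end of both comparisons with BMDM.

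Among the other VEGF and PDGF genes, none of 5 compared was at least 2-fold lower in any comparison. *Pdgfc* gave 5.05 in BMDM, 7.60 in pTAMs and 7.27 in mTAMs, at least 4.92-fold and at least 3.92-fold higher in TAMs. *Pdgfra*, a receptor gene of fibroblasts, gave 4.94, 7.20 and 7.82, at least 3.73-fold and at least 5.74-fold higher. *Kdr*, which encodes the main VEGF receptor of endothelium, gave 7.08, 6.33 and 6.42, *Flt4* gave 5.67 on all arrays, *Pdgfrb* gave 5.69, 5.46 and 5.46, and *Vegfd* and *Pdgfd* lay below the floor. Among 3 angiopoietin genes above the floor, *Angpt1* was higher in TAMs (4.80 in BMDM, 6.78 in pTAMs and 6.61 in mTAMs) and *Angpt2*, which encodes an antagonist of the TIE2 receptor, was lower (7.14, 6.12 and 5.43). *Angptl4*, a lipase inhibitor gene, was 2.79-fold higher in mTAMs than in BMDM (6.38, 6.62 and 7.86). The receptor genes *Tek* and *Tie1* lay below the floor.

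Partners of the neuropilins and of thrombospondin-1 were mostly within 2-fold or lower in TAMs. Of 9 semaphorin and plexin genes compared with BMDM, 3 were lower in pTAMs and 3 in mTAMs. The semaphorin receptor gene *Plxna1* gave 8.14 in BMDM, 6.54 in pTAMs and 6.44 in mTAMs, and *Plxnd1* gave 8.68, 7.62 and 7.30. *Sema3c* was counted with them, but its BMDM value of 5.34 barely passed the floor, and *Sema3e* was at least 2-fold higher in mTAMs. *Cd36*, a scavenger receptor gene whose product binds thrombospondin-1, gave 12.47 in BMDM, 8.33 in pTAMs and 8.43 in mTAMs, 17.6-fold and 16.4-fold lower in TAMs. *Cd47*, which encodes a further thrombospondin-1 receptor, gave 11.58, 11.81 and 12.14.

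Other secreted factors followed *Vegfa* in part. Of 8 compared between pTAMs and BMDM, 4 were higher and 1 was lower, with a median log2 difference of 1.03. Of these 4, *Adm*, *Ccn1* and *Ccn2* had BMDM values below the floor. In pTAMs they were at least 7.16-fold, at least 1.43-fold and at least 1.43-fold higher. The vessel-dilating peptide gene *Adm* gave 5.07 in BMDM, 8.14 in pTAMs and 6.03 in mTAMs, and *Hbegf*, a ligand gene of the EGF receptor, gave 5.74, 8.31 and 7.08. Both were, like *Vegfa*, lower in mTAMs than in pTAMs, by 4.32-fold and 2.35-fold. *Hgf*, which encodes hepatocyte growth factor, took the opposite course with 5.42, 5.75 and 6.90 and was 2.22-fold higher in mTAMs than in pTAMs. *Plau*, the urokinase gene, was highest in BMDM (13.03, 11.14 and 10.33).

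Genes that respond to low oxygen were mostly ordered like *Vegfa*, with pTAMs above mTAMs and mTAMs above BMDM for 8 of 12. The same order held for 7 of 10 epithelium or carcinoma markers, 4 of 10 macrophage markers and 0 of 12 immediate early genes. Its share over all genes was not counted, so the order does not single out this list. Of these 12 hypoxia response genes, 10 were at least 2-fold above BMDM in pTAMs and none below (median 2.21), 5 were higher in mTAMs than in BMDM and none lower (median 0.68), and 6 were lower in mTAMs than in pTAMs and none higher (median -0.97). *Hilpda*, a lipid droplet gene, gave 6.53 in BMDM, 12.01 in pTAMs and 11.18 in mTAMs. *Ndrg1* gave 9.65, 12.00 and 10.11 and was 3.71-fold lower in mTAMs than in pTAMs, and the carbonic anhydrase gene *Car9* gave 6.54, 7.81 and 6.13 and was 3.2-fold lower. Of 8 oxygen-sensing regulators, 3 were higher in pTAMs than in BMDM. *Egln3*, a prolyl hydroxylase gene that is itself induced by low oxygen, gave 4.60, 10.74 and 9.16, with log2 differences from BMDM of 3.06 and 1.46 from its second probe set, and *Hif1a* gave 10.92, 12.34 and 12.21. Oxygen itself was not measured.

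**Figure D4:**
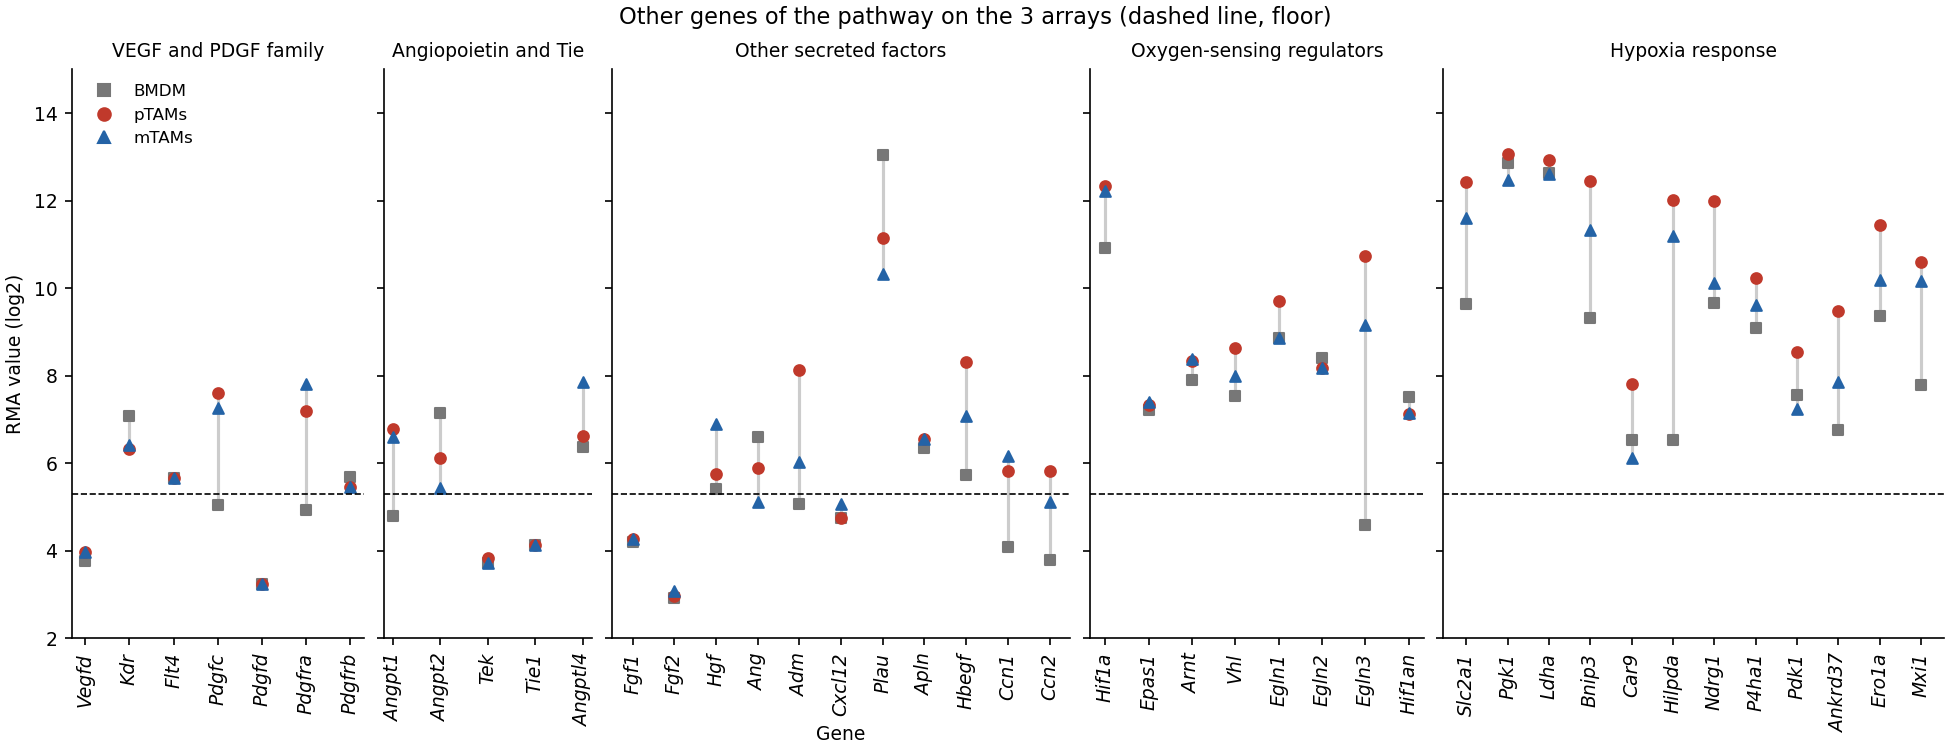
RMA values (log2) of other genes of the pathway on the arrays of BMDM (squares), pTAMs (circles) and mTAMs (triangles), the dashed line being the floor of 5.3. Of the 12 hypoxia response genes, 8 follow the order pTAMs, mTAMs, BMDM, as *Hilpda* does with 12.01, 11.18 and 6.53. The share of all genes with this order was not counted.

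Markers of other cell types moved with some of these results, and their part in them was not tested. All 10 macrophage markers lay above the floor on each array, and their summed signal was 15.78 in BMDM, 15.68 in pTAMs and 15.53 in mTAMs on the log2 scale. Single markers moved both ways beneath that sum, with 5 of 10 higher and 1 lower in pTAMs than in BMDM, 3 higher and 1 lower in mTAMs than in BMDM, and 3 lower in mTAMs than in pTAMs. *Adgre1*, which encodes F4/80, was 3.81-fold lower in pTAMs and 3.66-fold lower in mTAMs than in BMDM, where it gave 11.93, and *Itgam*, which encodes CD11b, gave 10.46, 11.90 and 11.61. *Cd163* (6.66, 9.69 and 7.58) and *Aif1* (8.84, 11.70 and 10.62) were highest in pTAMs and lowest in BMDM, as was *Vegfa*. The 12 endothelial markers summed to 9.33, 9.51 and 9.17, with 5, 6 and 6 of them above the floor. The endothelial genes *Cldn5*, *Emcn*, *Ramp2*, *Robo4*, *Tek* and *Tie1* lay below the floor on all arrays. *Vwf* was highest in BMDM (6.87, 5.94 and 5.78). *Cdh5* gave 5.44 on all arrays, but its second probe set differed by 1.24 in pTAMs against BMDM and by -1.04 in mTAMs against pTAMs. *Pecam1*, which myeloid cells also express, gave 3.92, 7.61 and 5.96. Epithelium or carcinoma markers summed to 8.31 in BMDM, 12.13 in pTAMs and 11.21 in mTAMs, the same order as *Vegfa*, and 2, 8 and 7 of 10 lay above the floor. *Cdh1* gave 4.73, 9.88 and 8.16, and *Krt14* and *Cldn7* lay below the floor throughout. Platelet markers, of interest since platelets store thrombospondin-1, summed to 12.34, 12.61 and 11.10, with 6 of 7 above the floor on each array. Most of that sum was *Pf4* (12.19, 12.40 and 10.62), the 1 platelet marker at least 2-fold lower in mTAMs than in BMDM. *Ppbp* (6.20, 8.79 and 7.87) was the 1 at least 2-fold above BMDM in both TAM arrays, with the same order of arrays as *Thbs1*. *Itga2b* gave 7.31 and *Gp9* 6.34 on all arrays, equal values that may be background although above the floor. Neutrophil markers summed to 10.69, 15.20 and 16.42, with 7, 10 and 10 of 10 above the floor, and pericyte and fibroblast markers to 9.09, 9.96 and 12.24, with 5, 8 and 8 of 10 above it, *Pdgfra* among them. *Rgs5* and *Lum* lay below the floor. Both of these sums were highest in mTAMs, and the values of *Vegfa*, *Pgf* and *Thbs1* were highest in pTAMs. On the mTAM array the neutrophil sum of 16.42 lay above the macrophage sum of 15.53. Alveolar macrophage markers, of which 2, 5 and 8 of 8 lay above the floor, summed to 9.44, 11.51 and 13.95. T cell markers summed to 8.56, 8.48 and 9.58, with 5 of 7 above the floor on each array and *Cd3g* and *Cd5* below it. Immediate early genes, which respond to tissue handling as well as to signals, summed to 12.51, 15.34 and 16.18. By their brightest probe sets all 12 were at least 2-fold above BMDM in both TAM arrays, as was *Thbs1*. The second probe sets of *Jun* (-0.16 in pTAMs and 0.10 in mTAMs against BMDM) and *Egr3* (0.00 in both) were not. That of *Egr2* was, with 2.95 and 3.26.

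**Figure D5:**
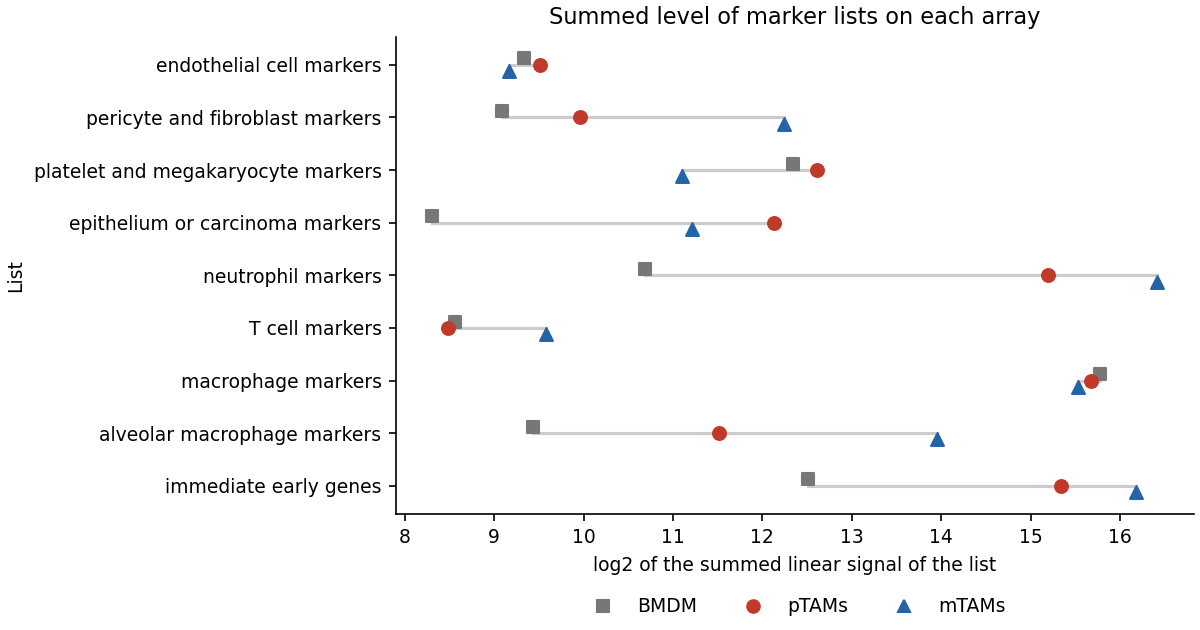
Summed linear signal of each marker list on a log2 scale (horizontal axis) on the arrays of BMDM (squares), pTAMs (circles) and mTAMs (triangles), one list per row. The macrophage sums lie between 15.53 and 15.78 although single markers differ in both directions, the epithelium or carcinoma sum is highest in pTAMs (12.13), and the neutrophil, fibroblast and immediate early sums are highest in mTAMs (16.42, 12.24 and 16.18).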

How the data were processed

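Expression was measured with biotin-labelled total RNA on Affymetrix mouse arrays, 1 per group. The authors deposited a single table of RMA log2 values (background-corrected, quantile-normalized and summarized per probe set), rounded to 2 decimals. The RMA version and settings are not stated in the sources used here. Quantile normalization hides a shift of the whole transcriptome. Precision is limited by the number of arrays.

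Gene names of probe sets were those of the platform annotation (34945 with 1 symbol, 932 with several, 9160 with none). Only the first kind was used, and the gene IDs of 34741 of them were found in RefSeq. The floor of 5.3 was the 95th percentile of 83 olfactory, vomeronasal and bitter taste receptor probe sets. Some genes above it gave the same value on all arrays, as *Itga2b* did with 7.31. The floor may thus not cover the background of every probe set. The probe set brightest on average over the arrays stood for its gene. Where 1 of the values did not exceed the floor, the floor took its place, and the fold is a lower bound. With 1 array per group, no test and no SD over samples could be had. The members and lists were chosen with earlier results of these data known. All probe sets of the members are described, all other VEGF and PDGF genes, and per list and comparison at most 3 genes in each direction with the largest differences of at least 2-fold. Genes at or below the floor, and some within 2-fold, were named after their values were seen. List sums add the linear signals of the genes.

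The procedure was run on simulated arrays with known differences, a check of the code that says nothing of variation between animals, sorts or arrays. Alternatives were median-centering, quantile or cyclic loess normalization, averaging the probe sets of a gene, no shared probe sets, no floor, a floor 1 log2 unit higher, values raised to the floor and a 3-fold threshold. A floor with sweet and umami receptors and the dimmest probe set of a gene were added after seeing the data. Promoters were taken from RefSeq (build GRCm38.p6), 250 bases before each start. Software was R 4.3.3, limma 3.58.1, Python 3.11.15, pandas 2.3.3, numpy 2.4.6 and, for figures, matplotlib 3.10.9.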

Additional observations from a re-analysis of the deposited data

Results flagged for a closer look

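A probe set that the annotation gives to *Thbs1* and to a second gene, *Pald1*, together was left out of the comparisons, since its signal can be credited to neither gene. It was far above the floor in both groups of TAMs, with 12.53 in pTAMs and 11.69 in mTAMs, against 6.11 in BMDM. Its log2 differences from BMDM were 6.42 in pTAMs and 5.58 in mTAMs, next to 6.50 and 5.06 for the brightest probe set of *Thbs1* alone. Between mTAMs and pTAMs it differed by -0.84, where the probe sets of *Thbs1* alone gave -1.44 and -1.68.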

How the results depend on the processing

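The main run was set beside 11 alternatives, of which 9 were planned. The 3-fold threshold gave counts but no differences of its own. Changing the floor alters which genes are compared, and raising values to it alters only those below it. *Pgf* and *Vegfb* have 1 probe set each, so only normalization could move their values above the floor. Over the main run and the other alternatives, *Vegfa* kept a difference of at least 2-fold in all comparisons. Its log2 range was 2.85 to 5.34 in pTAMs against BMDM and 1.34 to 3.31 in mTAMs against BMDM. In mTAMs against pTAMs it was -2.03 to -1.43. *Thbs1* also kept at least 2-fold, with 5.69 to 6.58, 4.01 to 5.26 and -1.68 to -1.32 in the same order. So did *Pgf* in pTAMs against BMDM (1.87 to 1.99) and in mTAMs against pTAMs (-1.98 to -1.91). *Nrp1* did so against BMDM (-1.75 to -1.53 in pTAMs and -2.00 to -1.67 in mTAMs). In mTAMs against BMDM *Pdgfb* (-1.54 to -1.05) and *Vegfb* (-1.32 to -1.15) did so. For *Vegfb* these were the 10 runs, main run included, that gave it a value. With the dimmest probe set of each gene, 1 member in place of 3 was lower in pTAMs than in BMDM, beside 840 of 11701 genes. There *Nrp2* came to -0.76 and *Pdgfb* to -0.77. *Nrp2* then came to -0.74 in mTAMs against BMDM. With the mean of all probe sets, 2 members were lower in pTAMs than in BMDM, beside 712 of 10817 genes, as *Pdgfb* came to -0.98. *Vegfc* was no longer counted as higher in mTAMs than in BMDM with values raised to the floor (0.65), and it was not compared with the mean of all probe sets, without shared probe sets or with the higher floor. At a 3-fold threshold *Pdgfb* was not counted as lower in pTAMs than in BMDM. At that threshold 1 member was higher and 2 were lower in mTAMs than in BMDM, beside 862 and 575 of 11945 genes. Between mTAMs and pTAMs 1 member was lower, beside 58 of 11801 genes. With the floor 1 log2 unit higher, where 8 members were compared, the median of the members in mTAMs against BMDM was -0.61 in place of 0.01.

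Other normalizations did not change which members were counted. Over all genes, cyclic loess moved the median of mTAMs against BMDM from -0.11 to -0.00 and the counts from 1368 higher and 1715 lower to 1548 and 1258. No paired analysis was possible because each group had 1 array, and for the same reason no leave-out of replicates was run.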

Other observations

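Of 5 inhibitors of angiogenesis other than *Thbs1* compared between pTAMs and BMDM, none was at least 2-fold higher or lower by its brightest probe set (median log2 difference 0.21), although the second probe set of *Serpinf1* differed by 2.05. Between mTAMs and BMDM, 2 of 6 were higher and 3 were lower (median -0.68). Between mTAMs and pTAMs, 1 of 6 was higher and 3 were lower (median -0.54), among them *Pf4*, which was 3.43-fold lower, and *Thbs1* itself was also lower there. *Timp3*, a metalloproteinase inhibitor gene, gave 4.76 in BMDM, 4.95 in pTAMs and 6.40 in mTAMs, and *Timp2* gave 9.78, 10.53 and 11.07, although its other 4 probe sets differed by 0.20 to 0.74. *Col18a1*, whose collagen is the source of endostatin, gave 8.99, 8.13 and 7.06. *Spred1*, an inhibitor gene of growth factor signaling, was 3.43-fold lower in mTAMs than in BMDM.

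By their brightest probe sets, all 12 immediate early genes were higher in both TAM arrays than in BMDM. Of them, 5 exceeded pTAMs by at least 2-fold in mTAMs, with none lower (median 0.82), and *Thbs1* was 2.71-fold lower. Any link between these genes and *Thbs1* was not tested. *Egr1*, for example, gave 6.40 in BMDM, 11.59 in pTAMs and 13.14 in mTAMs.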
